A study of Arabidopsis thaliana with 36 samples.

Results

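The genes described here are those whose mRNA was highest in Arabidopsis leaf 6 at T2, the second of 4 harvests, in wild type and in both *atx1,3,4* triple mutants (TMs). Within each genotype, the mean of log2(FPKM + 1) over the 3 libraries of T2 had to lie at least 0.8 above the mean at T0, at T4 and at T6. FPKM is a fragment count scaled to transcript length and to the library's mapped fragments. The rule was met by 15 of the 19437 genes in the table, or 0.0772%. The 12 groups were Columbia-0 wild type (WT), TM1 and TM2, each harvested at T0, T2, T4 and T6, when plants were 25, 27, 29 and 31 days old. TM1 and TM2 carry the same T-DNA insertion alleles of *ATX1*, *ATX3* and *ATX4*, which encode trithorax-type histone methyltransferases, and are separate isolates from one cross. TM plants had begun to bolt at T0, whereas WT plants were vegetative, apart from 1 WT plant at T6. All plants grew under long days, and each group's 3 libraries (A, B and C) were made from a single pool of 10 ground leaves. The error terms and p-values below therefore measure the spread between libraries of one pool and not the spread between plants. The permutation p-values given later also take in differences between the pools of TM1 and TM2. Each genotype was sampled once at T2, so the time point, the day of harvest and that pool of leaves cannot be told apart.

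The 15 genes are not a known pathway. By their annotation they include 2 plasma membrane aquaporins, *PIP2B* (also named PIP2;2) and *RD28* (PIP2;3), a LEA protein (*LEA7*), an annexin (*ANN4*), an MD-2-related lipid recognition protein (*ML3*), a beta-amylase (*BAM5*), a glycosyltransferase (*UGT72B1*), a TRICHOME BIREFRINGENCE-LIKE protein (*TBL26*) and a cysteine-rich receptor-like kinase (*CRK42*). The other 6 are known by locus only. Aquaporins of the PIP family form water channels in the plasma membrane and set how easily water enters and leaves a leaf cell. LEA proteins are hydrophilic proteins known from drying seeds and from dehydrated vegetative tissue, and many of their genes respond to abscisic acid through promoter sites with an ACGT core. Expression of PIP genes is known to follow the time of day and the water status of the plant, and all harvests here were made in the morning.

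Both aquaporin genes are shown first, because they are near-identical neighbours and their values depend on reads being told apart. The libraries were made by the BrAD-seq protocol, whose reads are taken here to come from the 3′ end of mRNA. The paper's methods do not state this. The last 90 bases of each coding sequence follow, from the TAIR10.1 assembly of RefSeq, with the 10 positions that differ in capitals. *PIP2B* is at chr2:15613624-15613713 on the minus strand and *RD28* at chr2:15618848-15618937 on the plus strand.
PIP2B: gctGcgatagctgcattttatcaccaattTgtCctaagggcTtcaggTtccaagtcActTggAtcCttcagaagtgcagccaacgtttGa
RD28: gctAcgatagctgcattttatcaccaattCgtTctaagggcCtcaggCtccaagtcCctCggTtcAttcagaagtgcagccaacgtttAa
Of these positions 80 were alike. Over the coding sequences, 94.8% of 858 aligned bases were identical, against 66.3% of 205 aligned bases in the 3′ untranslated regions. How reads that fit both genes were assigned is not given in the sources used here, so the level of either gene is uncertain by the reads the other may have lent it.

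The promoters of *LEA7* and *ML3* are printed as the 2 among the 15 that hold a G-box, CACGTG, in the window from 250 bases before to 50 bases after the annotated start. The 250 bases before each start are given, with the G-box and the ABRE core, ACGTGNC, in capitals on either strand. *LEA7* is at chr1:19619474-19619723 and *ML3* at chr5:8030915-8031164 (TAIR10.1), both on the plus strand.
LEA7: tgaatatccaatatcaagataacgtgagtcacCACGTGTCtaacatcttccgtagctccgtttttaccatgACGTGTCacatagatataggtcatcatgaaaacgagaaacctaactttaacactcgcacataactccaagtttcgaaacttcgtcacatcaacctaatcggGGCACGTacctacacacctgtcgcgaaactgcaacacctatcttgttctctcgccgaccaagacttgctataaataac
ML3: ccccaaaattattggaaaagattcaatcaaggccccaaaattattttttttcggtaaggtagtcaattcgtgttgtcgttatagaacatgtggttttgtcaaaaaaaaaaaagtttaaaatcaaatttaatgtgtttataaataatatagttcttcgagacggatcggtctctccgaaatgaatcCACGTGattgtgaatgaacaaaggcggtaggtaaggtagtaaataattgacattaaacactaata
The *LEA7* promoter held the ABRE core at 3 places, the first of which overlaps its G-box. At least 3 such places were found in 104 of 18499 promoters of protein-coding genes (0.562%). The ABRE core was found in 1 of the 15 promoters (*LEA7*), against 11.8% of all promoters, and the G-box in 2, against 9.09%. With a window that starts 200 bases before the start, the G-box was left in 1 of the 15 and in 6.6% of all promoters.

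Other motifs are given beside their share of all promoters. The ACGT core, which is part of both motifs above, was in 8 of the 15 promoters and in 50.2% of all. The letters TATAAA were in 10, against 50.9% of all, and CCGAC, the DRE/CRT core, was in 3, against 16.6%. The evening element AAATATCT was in 0 of the 15 and in 6.09% of all promoters, and the site II element TGGGCC was in 0, against 19.5%. The W-box core TTGACC was in 1, *AT3G06035*, against 14.3%. These counts were made on both strands and describe letters, not bound sites.

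The libraries held 4405524 to 11709917 reads on the listed genes, and at T2 the group medians lay between 6691602 and 7024904. Ribosomal RNA genes took 7.0% to 11.99% of the summed FPKM. Reads of the targeted genes were still found in the TMs, although the paper's RT-PCR across the insertions showed no full-length mRNA in either isolate. For *ATX1* the medians over 12 libraries were 4.71, 3.7 and 3.77 FPKM in WT, TM1 and TM2. They were 4.53, 5.92 and 5.6 FPKM for *ATX3*, and 4.42, 2.51 and 3.44 FPKM for *ATX4*. If these reads come from the 3′ ends, they do not test an insertion upstream of them. Among marker lists for leaf cell types, the summed FPKM of 9 trichome and epidermis markers at T2 was 324.3 to 435.1 in WT, 664.6 to 680.1 in TM1 and 456.5 to 502.9 in TM2, against 228.5 to 388.5 at the other time points. This sum was carried by *CUT1*, *LTP1* and *CER5*, with medians over the 36 libraries of 120.7, 93.9 and 60.9 FPKM, beside 16.9 for *ATML1*. Only 1 of the 9 was highest at T2 in all genotypes. The sums for 12 mesophyll, 10 guard cell and 12 phloem markers at T2 lay inside the range of the other time points. Of markers for other organs, 3 of 13 listed root genes and 2 of 12 listed flower and pollen genes were in the table. As the other root markers were absent from it, the root sum is not read as root tissue. The root sum, carried by *SCR* and *SHR* with medians of 25.1 and 14.0 FPKM, was 32.65 to 39.11 in WT, 51.19 to 60.02 in TM1 and 48.01 to 59.62 in TM2 at T2, against 29.62 to 51.27 at the other time points. The third root marker, *PYK10*, was at 0 in 14 libraries. At T2 the epidermal and the root sums were higher in both TMs than in WT. Within TM1 both sums were higher at T2 than at the other time points, while within WT the T2 ranges overlapped others. Their part in the values below was not tested. In such whole-leaf RNA, more cells of a type and more RNA per cell cannot be told apart.

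The genes were chosen by the height of T2 over the other time points, in the same libraries, so this height is described without a test. The rise at T2, taken as the T2 mean minus the mean of the other 3 time points on the log2(FPKM + 1) scale, was 1.09 to 2.34 in WT, 1.05 to 3.43 in TM1 and 1.05 to 2.51 in TM2 for the 15 genes. The medians were 1.51, 1.84 and 1.54. Over all 19437 genes the median rise was 0.04, 0.08 and 0.10, and 1 gene in 100 had a rise above 1.02, 1.24 and 1.13. In 8 of the 15 genes each of the 9 T2 libraries lay above each of the 27 other libraries of the series. In 14 the T2 libraries lay above all other libraries of their own genotype. The exception was *AT4G35320* in TM2, where T4 library A reached 13.3 FPKM and the T2 libraries began at 13.1 FPKM. The rule asks for a gap between means of these same libraries and so favours both counts. Their share over all genes was not counted, and nothing is read from them.

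**Figure D1:**
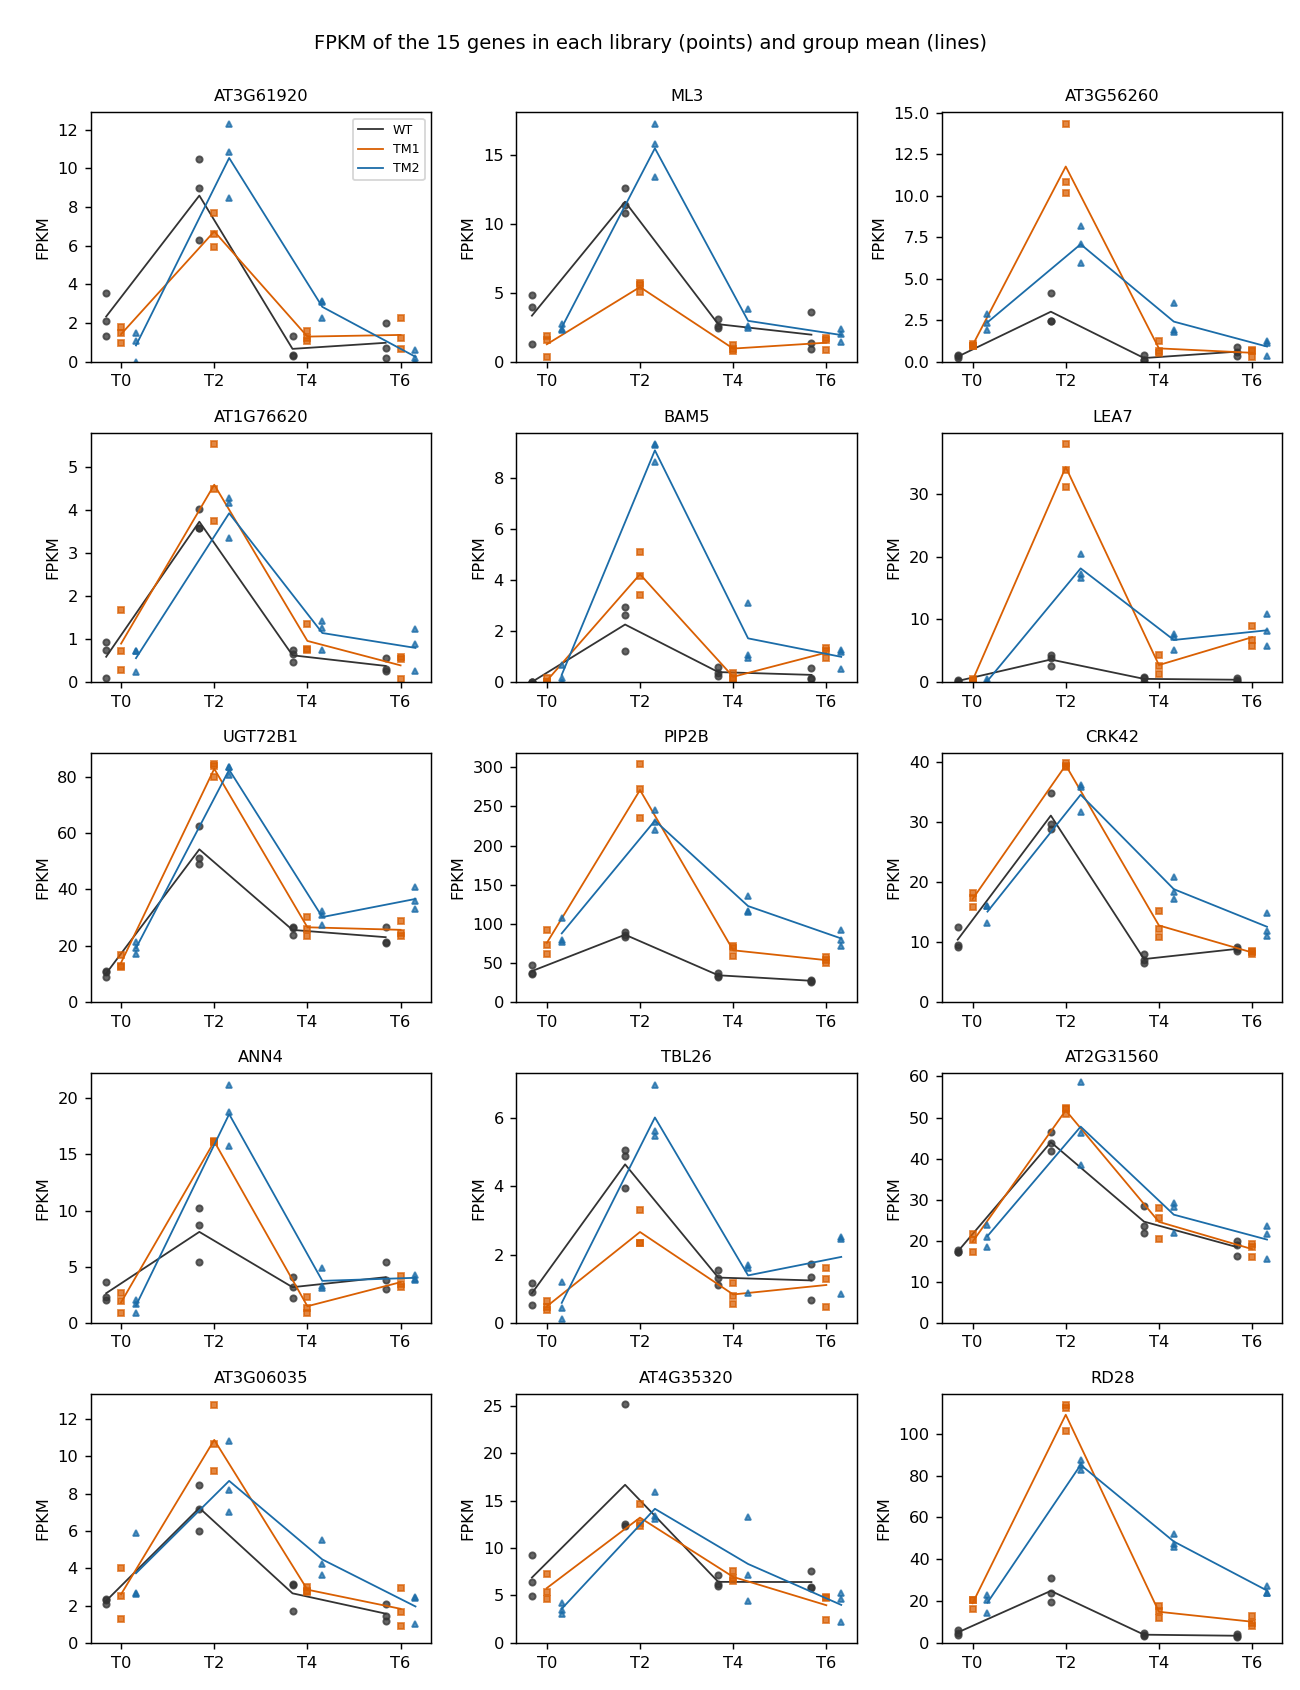
FPKM of the 15 genes in each of the 36 libraries by time point, 1 panel per gene, with WT as black circles, TM1 as orange squares and TM2 as blue triangles, and lines through the group means. T2 stands above the other time points in each genotype, and for *LEA7*, *PIP2B* and *RD28* the TM points at T2 lie well above the WT points.

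Few genes met this rule in the 3 genotypes together. It was met within WT alone by 119 genes (0.612%), within TM1 by 211 (1.09%) and within TM2 by 149 (0.767%), and 31 genes met it in both WT and TM1. The same rule applied to the other harvests gave 103 genes highest at T0, 7 highest at T4 and 15 highest at T6 in all 3 genotypes. The rule turned over gave 26 genes lowest at T2. Without the limit of 0.8, T2 was the highest time point in all 3 genotypes for 1425 genes (7.33%).

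The aquaporins had the highest mean FPKM of the 15 genes at T2 in both TMs. *RD28*, first known as a gene induced by desiccation, was read in WT libraries A, B and C at 6.38, 4.83 and 3.75 FPKM at T0, 19.6, 31.1 and 24.0 at T2, 4.55, 3.40 and 3.85 at T4, and 3.09, 2.75 and 4.44 at T6. In TM1 it was 20.4, 16.1 and 20.5 FPKM at T0, 101.2, 114 and 112 at T2, 11.8, 15.1 and 17.8 at T4, and 8.31, 9.41 and 12.7 at T6. In TM2 it was 23.1, 20.6 and 14.1 FPKM at T0, 85.0, 82.8 and 87.6 at T2, 52.2, 47.2 and 46.1 at T4, and 23.9, 24.1 and 27.2 at T6. Every TM library lay above every WT library of the same time point, and TM2 stayed well above TM1 at T4 and T6. At T2 the mean was 4.99 times the highest other mean in WT, 5.75 times in TM1 and 1.76 times in TM2.

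*PIP2B*, its neighbour, was read at a higher level and followed the same course. In WT it was 36.7, 35.7 and 47.0 FPKM at T0, 83.3, 89.4 and 86.0 at T2, 34.0, 37.3 and 32.1 at T4, and 26.5, 28.9 and 26.9 at T6. In TM1 it was 92.5, 73.7 and 61.1 FPKM at T0, 236, 304 and 272.5 at T2, 68.8, 58.6 and 71.6 at T4, and 57.7, 50 and 53.5 at T6. In TM2 it was 79.8, 76.6 and 107 FPKM at T0, 245.7, 229.5 and 220.0 at T2, 136, 116 and 117 at T4, and 72.3, 91.8 and 80.1 at T6. The TM libraries again lay above the WT libraries at each of the 4 time points, without overlap.

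*LEA7* was close to absent at T0 in the 3 genotypes and showed the largest rise of the 15 genes in TM1. In WT it was 0.230, 0.233 and 0 FPKM at T0, 2.55, 4.35 and 3.86 at T2, 0.657, 0.817 and 0 at T4, and 0.590, 0.193 and 0.281 at T6. In TM1 it was 0.16, 0.161 and 0.486 FPKM at T0, 38.0, 33.9 and 31.2 at T2, 4.38, 1.25 and 2.48 at T4, and 8.97, 5.81 and 6.68 at T6. In TM2 it was 0, 0.514 and 0 FPKM at T0, 16.7, 20.5 and 17.3 at T2, 7.24, 7.73 and 5.19 at T4, and 10.8, 5.82 and 8.17 at T6. The genotypes overlapped at T0, but from T2 onwards each TM library lay above each WT library. The T0 values rest on 2, 5 and 2 reads summed over the 3 libraries of WT, TM1 and TM2. From summed reads scaled by depth, T2 was 24 times T0 in WT (exact 95% binomial interval 6.29 to 198), 130 times in TM1 (55.5 to 402) and 135 times in TM2 (37.1 to 1.12e+03), where the intervals cover counting error only.

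*ANN4* encodes a member of the annexins, proteins that bind membrane lipids in a calcium-dependent way. At T2 it was 8.68, 10.2 and 5.39 FPKM in WT, 16.2, 16.1 and 16.2 in TM1, and 18.8, 21.2 and 15.8 in TM2. The TM libraries of T2 all lay above the WT libraries, while its 27 libraries of the other time points lay between 0.818 and 5.36 FPKM in any genotype. *ML3* had the second largest margin of the T2 mean over the next highest mean, 1.45 in the genotype where that margin was smallest. It was read at T2 at 12.6, 11.4 and 10.8 FPKM in WT, 5.68, 5.02 and 5.54 in TM1, and 13.4, 15.8 and 17.3 in TM2, against 0.347 to 4.81 FPKM elsewhere. For this gene TM1 was the lowest genotype at T2 and TM2 the highest, with no overlap.

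*BAM5* encodes a beta-amylase, an enzyme that releases maltose from starch, and this form lies outside the chloroplast. At T2 it was 1.21, 2.62 and 2.93 FPKM in WT, 4.15, 5.12 and 3.41 in TM1, and 9.32, 9.31 and 8.65 in TM2, so that the 3 genotypes formed 3 separate ranges. It was listed at 0 in all 3 WT libraries of T0. Against the level that 3 reads in each of those libraries would give, WT at T2 was at least 7.88-fold higher. *UGT72B1*, whose enzyme joins glucose to phenolic compounds, had the second highest mean FPKM of the 15 genes in WT at T2, with libraries at 62.5, 48.9 and 51.2 FPKM. In TM1 it was 80.0, 83.7 and 84.6 FPKM and in TM2 83.3, 80.6 and 83.4, so that the isolates overlapped above WT. *TBL26* belongs to a family whose studied members add acetyl groups to cell wall polysaccharides. Its means at T2 were 4.65 ± 0.61 FPKM in WT, beside 2.66 ± 0.57 in TM1 and 6.03 ± 0.83 in TM2 (SD, n = 3).

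*CRK42* belongs to a family of receptor-like kinases with cysteine-rich extracellular repeats. It was read at T2 at 34.9, 29.8 and 28.9 FPKM in WT, 39.2, 39.5 and 39.9 in TM1, and 36.3, 35.9 and 31.7 in TM2. The WT and TM2 ranges overlapped at T2, and its libraries of other time points lay between 6.63 and 21.0 FPKM. *AT3G06035*, annotated as a GPI-anchored membrane glycoprotein, averaged 7.23 ± 1.24 FPKM in WT, beside 10.9 ± 1.8 in TM1 and 8.68 ± 1.96 in TM2 at T2 (SD, n = 3).

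The remaining 5 genes have annotations that give little function. *AT3G61920* had the largest margin of all 15, 1.55 in the genotype where it was smallest, and was read at T2 at 6.29, 10.5 and 8.96 FPKM in WT, 5.92, 6.58 and 7.70 in TM1, and 12.3, 10.9 and 8.47 in TM2. *AT3G56260* was read at T2 at 2.46, 2.43 and 4.13 FPKM in WT, 10.8, 10.14 and 14.3 in TM1, and 8.15, 5.95 and 7.11 in TM2. For this gene the WT, TM2 and TM1 libraries followed each other without overlap. *AT1G76620*, with a DUF547 domain, had nearly the same T2 mean in each genotype, 3.72 ± 0.26 FPKM in WT, beside 4.58 ± 0.89 in TM1 and 3.92 ± 0.51 in TM2 (SD, n = 3). *AT2G31560*, with a DUF1685 domain, did too, at 44.0 ± 2.4, 51.7 ± 0.8 and 47.8 ± 10.2 FPKM. *AT4G35320* rested in WT on a single high library, since libraries A, B and C of T2 held 12.3, 25.1 and 12.5 FPKM.

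The comparison of TMs with WT at one time point used no difference between time points, and so it was tested. The levels it compares, those of T2 above all, also entered the rule. Its calls and p-values are therefore not independent of how the genes were chosen. A gene was called where limma gave a Benjamini-Hochberg adjusted p under 0.05 and at least a 2-fold change, in the same direction, in TM1 and in TM2. The fold changes are on the log2(FPKM + 1) scale, which understates those of low genes. At T2, 4 of the 15 genes were higher in the TMs, against 1.74% of all genes, and 0 were lower, against 0.448%. At T0 the count was 1 (background 0.869%), at T4 it was 2 (0.792%) and at T6 it was 2 (0.417%), and 0 were lower at T0, T4 and T6, where 0.520%, 0.741% and 0.597% of all genes were. The rule removes any gene without a T2 peak in WT or in either TM, so these shares describe genes with a peak in each genotype.

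*RD28* was the one member called at each of the 4 time points. Its log2 fold change in TM1 and TM2 was 1.75 ± 0.18 and 1.76 ± 0.18 at T0 (SE; limma adjusted p = 1.8e-08 and 6.1e-09) and 2.11 ± 0.18 and 1.76 ± 0.18 at T2 (adjusted p = 2.1e-10 and 1.2e-08). At T4 it was 1.68 ± 0.18 and 3.33 ± 0.18 (limma adjusted p = 2.6e-08 and 2.0e-15), and at T6 it was 1.33 ± 0.18 and 2.57 ± 0.18 (2.9e-06 and 2.4e-12). *PIP2B* was called at T2, at 1.63 ± 0.13 in TM1 and 1.42 ± 0.13 in TM2 (limma adjusted p = 3.9e-11 and 1.6e-09). At T0, T4 and T6 its TM1 change was 0.90, 0.92 and 0.95, below the 2-fold limit, with adjusted p of 7.0e-06, 3.5e-06 and 3.5e-06 from limma. In TM2 it was 1.12, 1.8 and 1.53 at those times. For both aquaporins the difference between TMs and WT was not limited to T2.

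*LEA7* was called at T2, T4 and T6 and not at T0, where its libraries overlapped and the TM1 change was 0.13 ± 0.26 (limma adjusted p = 0.815). At T2 it was higher by 2.96 ± 0.26 in TM1 and 2.08 ± 0.26 in TM2 (limma adjusted p = 3.8e-10 and 4.4e-07). At T4 the changes were 1.27 ± 0.26 and 2.4 ± 0.26 (7.2e-04 and 1.6e-08), and at T6 they were 2.58 ± 0.26 and 2.75 ± 0.26 (1.0e-08 and 2.0e-09). The TM1 call at T4 was lost without library C, where the change was 1.00, and when only the libraries compared entered the fit. *AT3G56260* was called at T2, at 1.68 ± 0.22 in TM1 and 1.03 ± 0.22 in TM2 (limma adjusted p = 6.8e-07 and 8.0e-04), and its TM2 change was under the 2-fold limit without library A (0.84) and after median ratio scaling (0.94). At T2 the epidermal and root marker sums given above, the latter resting on *SCR* and *SHR*, were also higher in both TMs. The part of these sums in the calls was not tested.

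**Figure D2:**
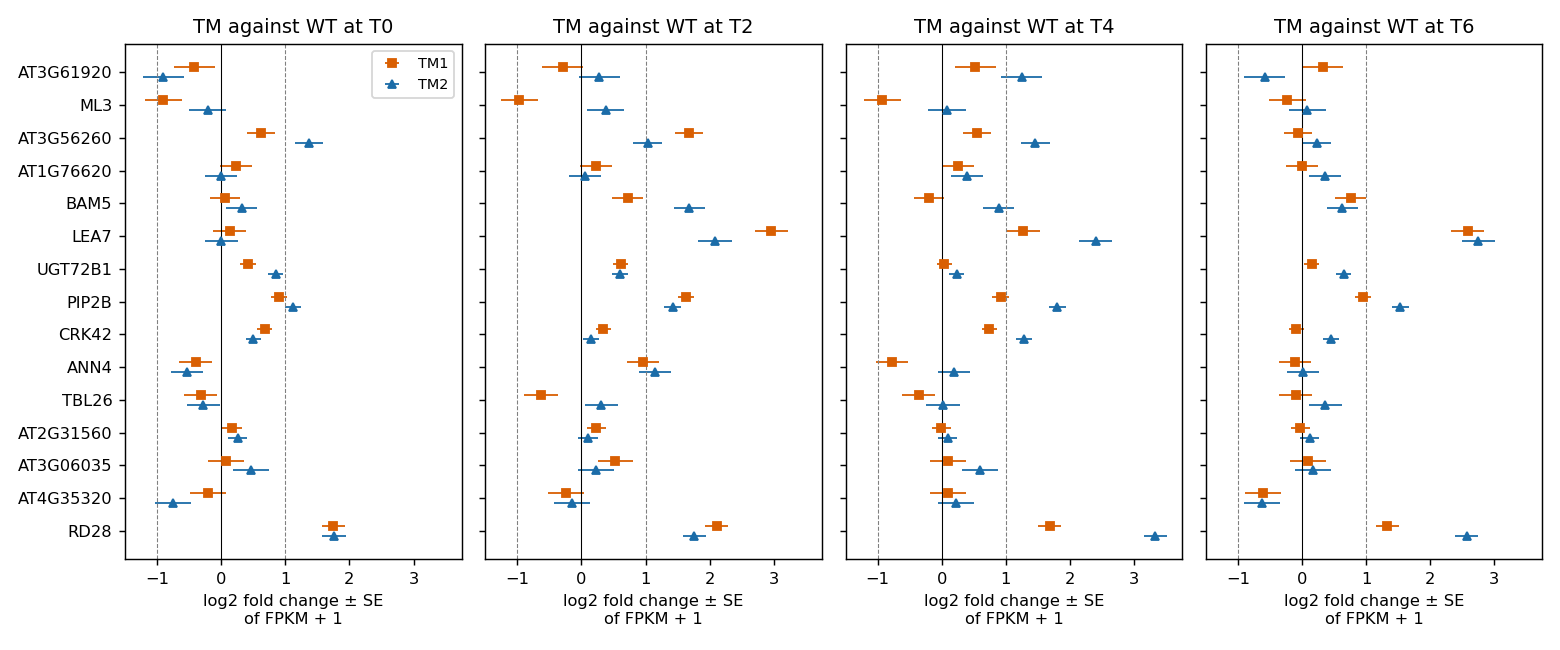
Log2 fold change of FPKM + 1 (x axis) ± SE from limma for each of the 15 genes (rows) in TM1 (orange squares) and TM2 (blue triangles) against WT at T0, T2, T4 and T6 (panels), with dashed lines at a 2-fold change. *RD28* lies beyond the 2-fold line in both isolates in each panel, and *LEA7* does so at T2, T4 and T6 but not at T0.

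Without the 2-fold limit, 7 of the 15 genes were higher in both TMs at T2, where 11.3% of all genes were, and 0 were lower, against 6.44%. The additional genes were *BAM5*, *UGT72B1* and *ANN4*. *UGT72B1* was higher by 0.61 and 0.60 in TM1 and TM2 (limma adjusted p = 2.8e-04 and 4.0e-04), and *ANN4* by 0.96 and 1.14 (0.00498 and 0.00122). *BAM5* was higher by 0.72 in TM1 (0.0272) and by 1.68 in TM2 (4.4e-06). The same 7 genes had each of the 6 TM libraries of T2 above each of the 3 WT libraries, which held for 17.8% of all genes. The count of such genes was 5 at T0 (8.40%), 5 at T4 (8.85%) and 3 at T6 (10.6%), and at T6 *AT4G35320* had all TM libraries below WT (6.78%). At T0, T2 and T4 this was so for 0 of the 15 genes, against 4.98%, 10.0% and 8.73% of all genes. For single genes, the two-sided exact permutation test of 6 TM against 3 WT libraries gave p = 0.0119, the smallest its 84 arrangements allow, for *PIP2B* and *RD28* at each time point and for *LEA7* at T2, T4 and T6. *CRK42* reached this p in the same test at T0 and T4, and *AT3G56260*, *UGT72B1* and *ANN4* did at T2. Its share over all genes was not counted. The TM libraries came from separate pools of TM1 and TM2, so the libraries are not fully exchangeable. *ML3* had a log2 fold change at T2 of -0.97 in TM1 (adjusted p = 0.0114 from limma), just short of 2-fold, and of 0.38 in TM2 (0.376). Some differences passed both limits in TM2 alone. *CRK42* at T4 was higher by 1.28 ± 0.12 in TM2 (limma adjusted p = 1.8e-09) and by 0.74 ± 0.12 in TM1 (5.1e-05), and its 6 TM libraries lay above the 3 WT libraries. *AT3G56260* was higher in TM2 by 1.37 at T0 and 1.46 at T4, and *AT3G61920* by 1.25 at T4, the latter not without library B, where the change was 1.24.

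TM1 and TM2, which carry the same alleles, overlapped at T0 for 11 of the 15 genes and at T4 for 5. At T4 the 3 TM2 libraries lay above the 3 TM1 libraries for 10 of the 15 genes and below them for 0, where 9.94% and 11.9% of all genes did so. At T0 the counts were 3 and 1 (7.72% and 9.05% of all genes), at T2 they were 4 and 4 (9.49% and 7.86%), and at T6 they were 4 and 1 (8.51% and 9.20%). The ratio of TM2 to TM1 means at T4 was 3.26 for *RD28*, 1.85 for *PIP2B*, 2.48 for *LEA7*, 3.12 for *ML3* and 1.47 for *CRK42*. For *BAM5* it was 8.44, on levels of 0.203 FPKM in TM1 and 1.71 in TM2. The other 4 genes were *AT3G61920*, *AT3G56260*, *ANN4* and *AT3G06035*, with ratios of 2.19, 3.02, 2.55 and 1.57. Each isolate was one pool at T4, so a difference between isolates and one between pools cannot be told apart.

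Whether the levels at T4 and T6 differed from T0 was tested within each genotype, a comparison the rule does not use directly. The rule does hold T4 and T6 at least 0.8 below T2, which limits how far they can stay above T0. At T4, 7 differences from T0 passed the threshold, an adjusted p under 0.05 and at least a 2-fold change. In WT, *UGT72B1* was higher by 1.25 ± 0.12 (limma adjusted p = 4.9e-10, background 7.85%) and *AT3G61920* lower by 1.01 on the log2 scale (a change of -1.01 ± 0.32, adjusted p = 0.0119, background 2.77%). The latter call was lost without library B, where the change was -0.62. In TM1, *LEA7* was higher by 1.47 ± 0.26 (3.0e-05, background 7.23%). In TM2, *LEA7* was higher by 2.73 ± 0.26 (3.6e-10), *RD28* by 1.31 ± 0.18 (5.5e-07), *AT3G61920* by 1.15 ± 0.32 (0.00456) and *BAM5* by 1.03 ± 0.24 (1.0e-03), with a background of 6.89%. In the other direction, 0 of the 15 genes were lower in TM1 and in TM2, where 3.26% and 2.99% of all genes were. Without library C the *AT3G61920* change in TM2 was 0.71, and without library B that of *BAM5* was 0.90, and neither passed. *UGT72B1* was also higher than at T0 in TM1, by 0.88 ± 0.12, and in TM2, by 0.63 ± 0.12. These changes were below the 2-fold limit (limma adjusted p = 5.4e-07 and 1.1e-04).

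At T6, 5 differences from T0 passed, all of them higher at T6, while 4.02%, 4.32% and 4.41% of all genes were lower in WT, TM1 and TM2. *UGT72B1* remained higher in WT, by 1.1 ± 0.12 (limma adjusted p = 7.2e-09, background 6.94%). Below the 2-fold limit, it was also higher by 0.83 ± 0.12 in TM1 and 0.90 ± 0.12 in TM2 (limma adjusted p = 1.3e-06 and 4.2e-07). *LEA7* was higher by 2.68 ± 0.26 in TM1 (5.0e-10, background 6.92%) and by 2.98 ± 0.26 in TM2 (4.9e-11, background 6.41%). In summed reads scaled by depth that was 27.6 times T0 in TM1 (11.5 to 86.2) and 62.5 times in TM2 (17 to 520), and in WT it was 2.43 times (0.502 to 23.1). *BAM5* was higher in TM1 by 1.04 ± 0.24 (8.5e-04) and *ANN4* in TM2 by 1.02 ± 0.25 (0.0017). Neither of these passed in every set of libraries, with *BAM5* at 0.99 without A and 0.95 without B, and *ANN4* at 0.77 without A. Between T4 and T6, *LEA7* rose in TM1 by 1.21 ± 0.26 (0.00123, background 0.869%) and *AT3G61920* fell by 1.63 on the log2 scale in TM2 (adjusted p = 4.7e-04, background 1.23%). The median of all genes lay 0.163, 0.131 and 0.135 above T0 at T4 in WT, TM1 and TM2, and 0.096, 0.109 and 0.135 above it at T6. After median ratio scaling that took the median to at most 0.019, *UGT72B1* at T6 in WT, *BAM5* at T4 in TM2 and *ANN4* at T6 in TM2 no longer passed. Some genes ended below T0 without reaching the 2-fold limit. From T0 to T6 *CRK42* changed by -0.97 ± 0.12 in TM1 (limma adjusted p = 1.4e-07), and it was called lower after that scaling (background 5.48%). *RD28* changed by -0.86 ± 0.18 in TM1 and *AT3G56260* by -0.84 ± 0.22 in TM2 (limma adjusted p = 2.7e-04 and 0.00261).

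**Figure D3:**
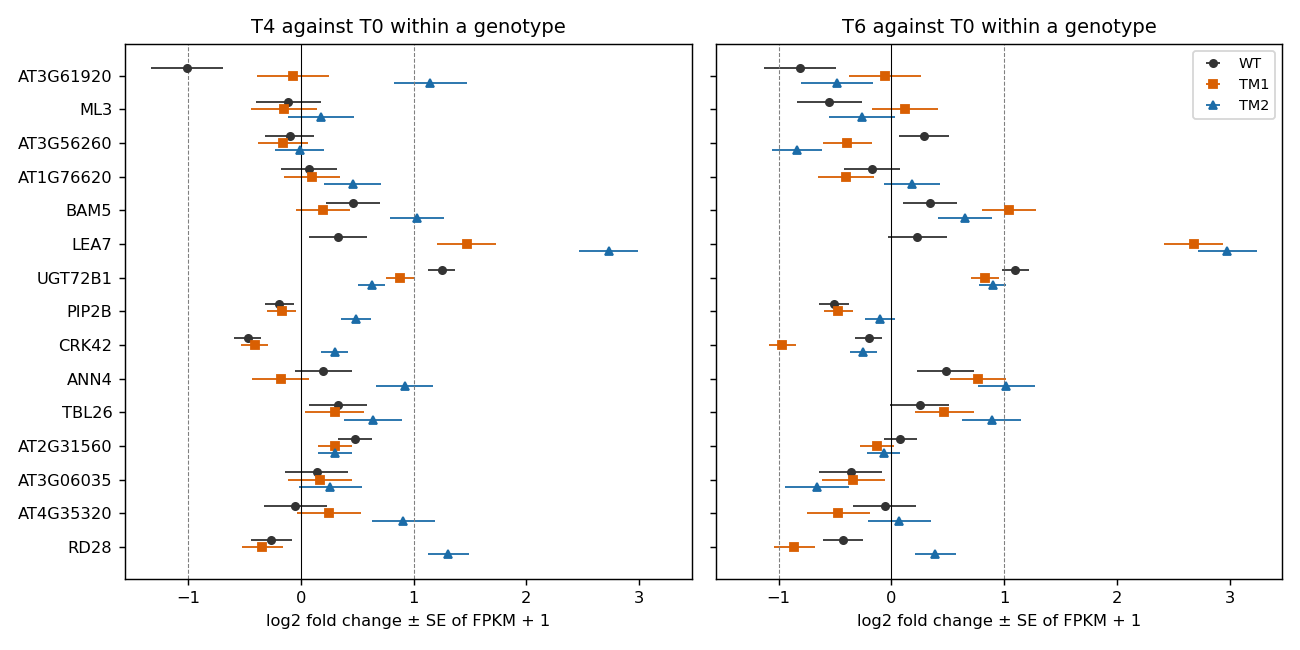
Log2 fold change of FPKM + 1 ± SE (x axis) for each of the 15 genes (rows) at T4 (left) and T6 (right) against T0 within WT (black), TM1 (orange) and TM2 (blue). Most points lie between the 2-fold lines, while *LEA7* lies far to the right in both TMs and near 0 in WT.

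The height of the T2 peak, T2 minus the mean of T0, T4 and T6, is built from the differences that chose the genes, so its values in the TMs minus WT are a description with no test. The rule cuts off genes with a low peak in any genotype, and *ANN4* in WT was itself just past its limit, with a margin of 0.84. For *ANN4* the peak was higher than in WT by 1.38 ± 0.29 in TM1 and 1.25 ± 0.29 in TM2 (SE, log2(FPKM + 1) scale). It was the 1 gene of the 15 that met the limits used above in both TMs, where 1.07% of all genes met them upwards and 0.216% downwards, and nothing is read from that count. The values of *LEA7* were 1.64 ± 0.30 in TM1 and 0.36 ± 0.30 in TM2, and those of *AT3G56260* were 1.31 ± 0.25 and 0.01 ± 0.25. *BAM5* gave 0.51 ± 0.28 and 1.06 ± 0.28, and *RD28* gave 0.52 ± 0.21 and -0.79 ± 0.21. At a pseudocount of 0.1 the TM1 values of *LEA7* and *AT3G56260* were 0.82 and 1.00, and the TM2 value of *BAM5* was 0.44.

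The relatives of the 15 genes were described in the same way, with no test. The T2 rise of the 13 PIP aquaporin genes of the table, on the log2(FPKM + 1) scale, had medians of 0.06 in WT, 0.88 in TM1 and 0.49 in TM2, beside 0.04, 0.08 and 0.10 over all genes. T2 was the highest time point in all 3 genotypes for 3 of them, *PIP2B*, *RD28* and *PIP1;4*, the last with rises of 0.35, 0.98 and 0.54. *PIP1;2* gave 0.04 in WT, 1.00 in TM1 and 0.81 in TM2, and *PIP1;3* gave -0.42, 0.88 and 0.13. Of 4 annexin genes, 3 were highest at T2, *ANN4*, *ANN3* and *ANNAT2*. *ANN3*, the gene beside *ANN4*, gave 0.40, 1.47 and 1.62. Of 9 beta-amylase genes 2 were highest at T2, *BAM5* and *BAM2*, while *BAM3*, a chloroplast form, gave -0.28, -0.42 and -0.02. The count was 4 of 8 for LEA genes, 4 of 33 for TBL genes and 1 of 3 for UGT72 genes, beside 7.33% of all genes. It was 3 of 33 for genes with a CRK symbol. Families were taken by symbol, and *CRK3* names both *AT1G70530* and *AT2G46700*. The CRK set may therefore hold kinases that are not relatives of *CRK42*, and nothing is read from its count.

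**Figure D4:**
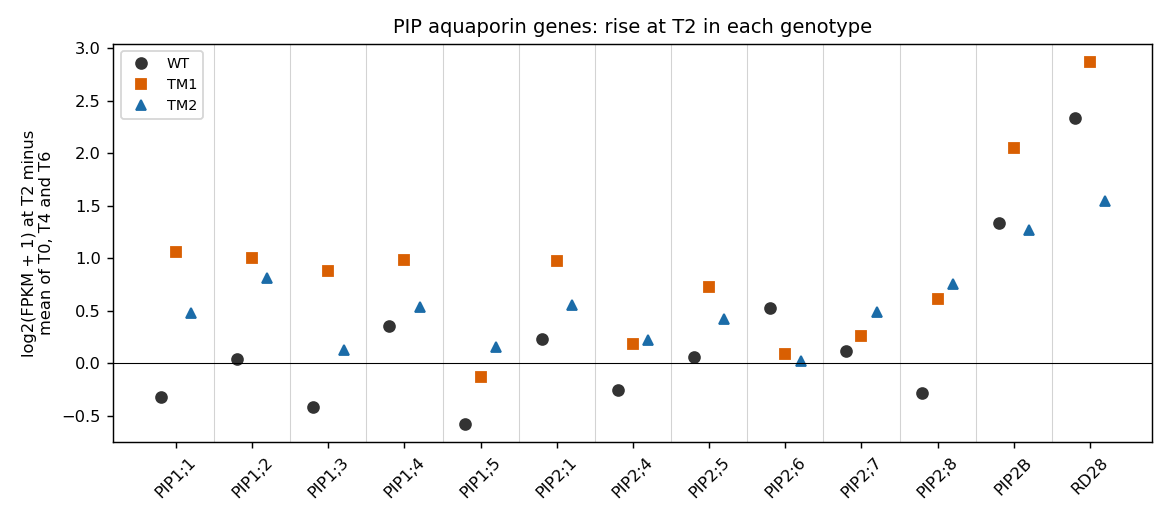
Rise at T2 (log2(FPKM + 1) at T2 minus the mean of T0, T4 and T6, y axis) of 13 PIP aquaporin genes (x axis) in WT (black circles), TM1 (orange squares) and TM2 (blue triangles), each point from group means of 3 libraries. *PIP2B* and *RD28* stand above the other family members in each genotype, and most other members were near or below 0 in WT.

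Of the pathway lists matched to the table, the sugar and carbon starvation list was the only one with a member, *BAM5*. T2 was the highest time point in all genotypes for 2 and the lowest for 9 of the 25 genes of that list. Among 25 genes of abscisic acid and drought response, 2 were highest at T2 (8%), beside 7.33% of all genes, and 0 were lowest. The median T2 rise of that list was -0.02 in WT, 0.50 in TM1 and 0.46 in TM2. Over all genes it was 0.04, 0.08 and 0.10. The jasmonate list had 7 of 30 genes highest at T2, with median rises of -0.03, 0.52 and 0.61. Other lists held genes that were lowest at T2, as 16 of 35 rapid touch and wound genes and 8 of 12 morning clock genes were lowest at T2 in all genotypes, against 621 of 19437 genes.

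The 15 genes lie on all 5 chromosomes, and 2 pairs are direct neighbours. *PIP2B* (chr2:15613368-15615022, minus strand) and *RD28* (chr2:15617635-15619155, plus strand) are 2612 bases apart, point away from each other and have 0 genes between them. *UGT72B1* (chr4:461513-463556) and *TBL26* (chr4:466298-468294), both on the minus strand, are 2741 bases apart, also with 0 genes between. Of the genes on either side of these pairs, none met the rule. *AT2G31560* lies 17.3 kb from *ATX1* and *AT3G61920* 75.4 kb from *ATX3*, and neither was called in both TMs against WT at any of the 4 time points. *LEA7* (chr1:19619724-19621534, 2 exons), *ANN4* (chr2:16196265-16198832), *BAM5* (chr4:8666334-8669526) and *CRK42* (chr5:16151522-16155215) lie apart from each other.

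The genes were also set against each other outside T2. Over the 9 group means of T0, T4 and T6, the Pearson correlation of the 105 gene pairs had a median of 0.22 and ran from -0.41 to 0.99, with 8 pairs over 0.8 and 28 below 0. *PIP2B* and *RD28* gave 0.99, *BAM5* and *LEA7* 0.88, *PIP2B* and *CRK42* 0.86, and *ANN4* and *TBL26* 0.86. The value for the aquaporin pair may rest in part on reads that fit both genes, whose assignment is not given. These values describe 9 groups that share libraries across genes, and they were not set against other gene pairs of the table.

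The limit of 0.8 falls within a continuous range. Just inside it were *RD28* with 0.80, *AT4G35320* with 0.81 and *AT3G06035* with 0.82, taking for each gene the genotype with the smallest margin. Just outside were *AT4G29700* with 0.77, *CER1* with 0.77 and *AT4G27560* with 0.74. *CER1* encodes an enzyme of wax alkane synthesis, and its T2 means were 7.76 ± 1.11 FPKM in WT, beside 58.4 ± 2.1 in TM1 and 26.4 ± 2.0 in TM2 (SD, n = 3). In 7 of the 15 genes the mean over all 36 libraries was below 5 FPKM, and 3 of them (*AT3G61920*, *BAM5* and *LEA7*) were listed at 0 in some library outside T2.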

How the data were processed

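Per the study's methods, the authors prepared directional libraries (BrAD-seq) from leaf 6 and aligned reads to TAIR10 using Rsubread. HTSFilter removed weakly expressed genes, and NOISeq converted counts to the deposited FPKM values of the 36 libraries. No column was left unassigned (0). FPKM divides reads by gene length, so if reads come from the 3′ end, levels compared between genes depend on that length. Whole reads were recovered for 19437 of 19437 genes (largest distance from a whole number 0.00016) and used for depth, read counts and limma voom as an alternative.

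The main test was limma 3.58.1 (R 4.3.3) on log2(FPKM + 1), a pseudocount of 1, with a mean for each of 12 groups, eBayes with trend and Benjamini-Hochberg adjustment over all genes within each contrast. Tables were handled with Python 3.11.15, pandas 2.3.3, numpy 2.4.6 and scipy 1.17.1, and figures with matplotlib 3.10.9. The procedure was tested on simulated data. Sequences and positions came from RefSeq TAIR10.1. All 15 genes are named. The genes outside them that are named are the 3 just below the limit, relatives, lists and markers. The rule, the members and the gene and motif lists were chosen with earlier results of these data known. Library letters did not pair samples across groups, since 0 of 36 correlations of same-letter deviations were over 0.1. The peak height was fitted in the same model and is given as a description, since the rule used the same differences. Alternatives were the pseudocount, a filter on low FPKM, other scalings, left-out libraries, voom and the fold limit.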

Additional observations from a re-analysis of the deposited data

Results flagged for a closer look

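The height of the T2 peak of *ANN4* was 1.38 in TM1 and 1.25 in TM2 above that in WT, past the limits of the limma interaction (log2(FPKM + 1)). *ANN4* was chosen by the same differences between T2 and the other time points, so this is no independent test. Each value also missed the limits without 1 library, with TM1 at 1.01 without library C and TM2 at 1.24 without library B.

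Other changes went in opposite directions in different genotypes, with all 3 libraries of each time point on one side of the 3 of the other, and these differences were not tested. From T0 to T4 *CRK42* changed by -0.47 in WT and -0.41 in TM1, and by 0.30 in TM2. From T4 to T6 it changed by 0.28 in WT, -0.56 in TM1 and -0.55 in TM2. From T0 to T6 *RD28* changed by -0.86 in TM1 and 0.39 in TM2.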

How the results depend on the processing

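Of 46 gene and contrast pairs past the threshold, 23 passed under each alternative that was run, and of 547 values under alternatives 493 kept their call, 54 lost it and 0 reversed. These pairs include peak heights, which are a description and no test. They are those of *ANN4* in both TMs, of *LEA7* and *AT3G56260* in TM1 and of *BAM5* in TM2. The counts depended on the pseudocount, the rise required and the fold limit. At a pseudocount of 0.1 the rule gave 33 genes and at 5 it gave 3, against 15. The counts of calls here and below sum both directions, and those within genotypes sum WT, TM1 and TM2. The share of all genes called moved with the setting too. For T4 against T0 upwards in WT it was 12.2% at a pseudocount of 0.1 and 3.16% at 5, against 7.85%. The counts are therefore no result about the 15 genes. The calls at 0.1 were 2 for TM against WT at T0, 11 for T4 against T0, 11 for T6 against T0 and 5 for T6 against T4. At 5 they were 1 for TM against WT at T4, 1 at T6, 3 for T4 against T0, 2 for T6 against T0, 0 for T6 against T4 and 0 for the peak height. A rise of 0.6 gave 38 genes, a rise of 1 gave 7, and median ratio scaling gave 9, with *RD28*, *CRK42*, *TBL26*, *AT2G31560*, *AT3G06035* and *AT4G35320* left out. With no fold limit the counts for TM against WT were 4 at T0, 7 at T2 and 4 at T4, and those within genotypes 15 for T4 against T0, 16 for T6 against T0 and 12 for T6 against T4. More of all genes were called in that setting too. At T2 11.3% of them were higher and 6.44% lower in both TMs, against 1.74% and 0.448% with the limit. With voom on recovered reads they were 11 for T6 against T0 and 7 for T6 against T4. With only the libraries compared in the fit, TM against WT at T4 gave 1. Most of these counts stand without their share of all genes, and nothing is read from them.

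Leaving out one library of each group gave 1 to 2 calls at T0, 4 to 5 at T2, 1 to 3 at T4, 2 to 3 at T6, 7 to 8 for T4 against T0, 5 to 6 for T6 against T0, 2 to 4 for T6 against T4 and 0 to 1 for the peak height, which is a description. The rule gave 13 to 17 genes, of which 10 without A, 10 without B and 13 without C were among the 15. The letters do not pair the samples, and with the letter as a replicate block the counts were 1, 4, 2 and 2 for TM against WT at T0, T2, T4 and T6, with no call changed. Shares of all genes are not given beside the counts of this paragraph, which describe the settings and not the 15 genes. At 18 to 294 reads a library for *LEA7* at T2 but 0 to 3 at T0, its T0 level is the limit on its fold changes.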
